A study of Mus musculus with 2 samples.

Results

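The measurement described here is the change of the CREBH genotype ratio with feeding state in mouse liver. For each gene the log2 ratio of knockout (KO) over wild-type (WT) signal on the fed array was taken from the same ratio on the fasted array, and the result is called the difference of ratios below. A positive value means that KO stood higher relative to WT after fasting than in the fed state. Genes entered when the scanner software rated their probe well above background in both channels of both arrays, which held for 11287 of the 20284 genes that could be named on the array. Of the other genes, 7290 were above background in none of the 4 channels, 521 in 1, 610 in 2 and 576 in 3. Most of the genes short of 1 channel were dim in the fed WT pool alone (411 genes), against 112 in the fed KO pool, 26 in the fasted WT pool and 27 in the fasted KO pool. The fed WT channel was the dimmest as a whole. There 39.9% of gene spots were well above background, against 42.9% in fed KO, 45.9% in fasted WT and 45.8% in fasted KO. The filter thus removed genes low in fed WT most often, and its effect on the counts below was not tested.

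The study compared livers of WT C57B6J mice with livers of mice null for CREBH on a C57B6J background. Mice either had food ad lib or went without it for 24 h. RNA of each group was pooled, so there were 4 pools: fed WT, fed KO, fasted WT and fasted KO. The labels put WT in the green dye Cy3 and KO in the red dye Cy5 on both Agilent arrays, 1 array per feeding state, and a dye effect of a gene that is the same on both arrays cancels in the difference of ratios. Age, sex and the number of mice in a pool are not given in the sources used here, and the labels name no cell type to which the loss of CREBH was limited. Without replicate pools there was no test, and genes were sorted by a rule of size, at least 2-fold (1 on the log2 scale). In pooled whole tissue, fewer cells of a type and less RNA per cell cannot be told apart.

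CREBH, the product of Creb3l3, is a transcription factor of hepatocytes that is held in the endoplasmic reticulum membrane, cut in the Golgi and released to the nucleus, and it is known for driving Fgf21, apolipoprotein and fatty acid genes in fasting together with the fatty acid receptor PPAR alpha. Fasting also lowers insulin, which slows fatty acid and sterol synthesis through the SREBP factors, and shifts the liver towards fatty acid oxidation. A gene that depends on CREBH only when food is absent, or only when it is present, appears in the difference of ratios, whereas a gene that depends on it equally in both states does not.

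The difference of ratios was at least 2-fold for 155 of the 11287 genes, 1.37% of those measured. It was higher for 87 genes (0.771%) and lower for 68 (0.602%). Over all measured genes the median was -0.005, the SD 0.31 and the median absolute value 0.14. Above 0 lay 5507 genes and below it 5780, the split to set beside the sign counts of lists below. On the fed array alone KO was at least 2-fold above WT for 18 genes (0.159%) and below it for 45 (0.399%). The fasted array had 43 genes at least 2-fold above WT (0.381%) and 53 below (0.47%). The sign of a ratio on a single array is relative to the scaling of that array. Centred on all spots, the median of all measured genes was 0.78 fed and 0.60 fasted, and genes past 2-fold then numbered 3112 above WT and 9 below when fed, and 937 and 16 when fasted. Nearest the rule of size, Psmb9 lay just inside at 1.003 and Mt2 just outside at 0.995.

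The spread between spots of a probe was small beside the 2-fold rule, although it carries nothing of the spread between mice. Among 233 measured probes printed 10 times per array, the median SD of the difference between spots was 0.10. The scanner software gave a larger median error of 0.29 for the difference of a gene, close to the SD of 0.31 over all genes. Of 24 genes past 2-fold with at least 2 measured probes, all 24 had each of their probes on the gene's side of 0, and 16 had each of them past 2-fold. Among the others, the probes of Gbp6 ran from 0.39 to 1.23, those of Nsdhl from 0.87 to 1.86 and those of Txnip from -1.22 to -0.23. The counts include the brightest probe, whose value put the gene past 2-fold, and so lean towards agreement. The share of genes past 2-fold was 0.461% among the dimmest genes and 2.06% in the brightest of 4 equal groups.

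**Figure D1:**
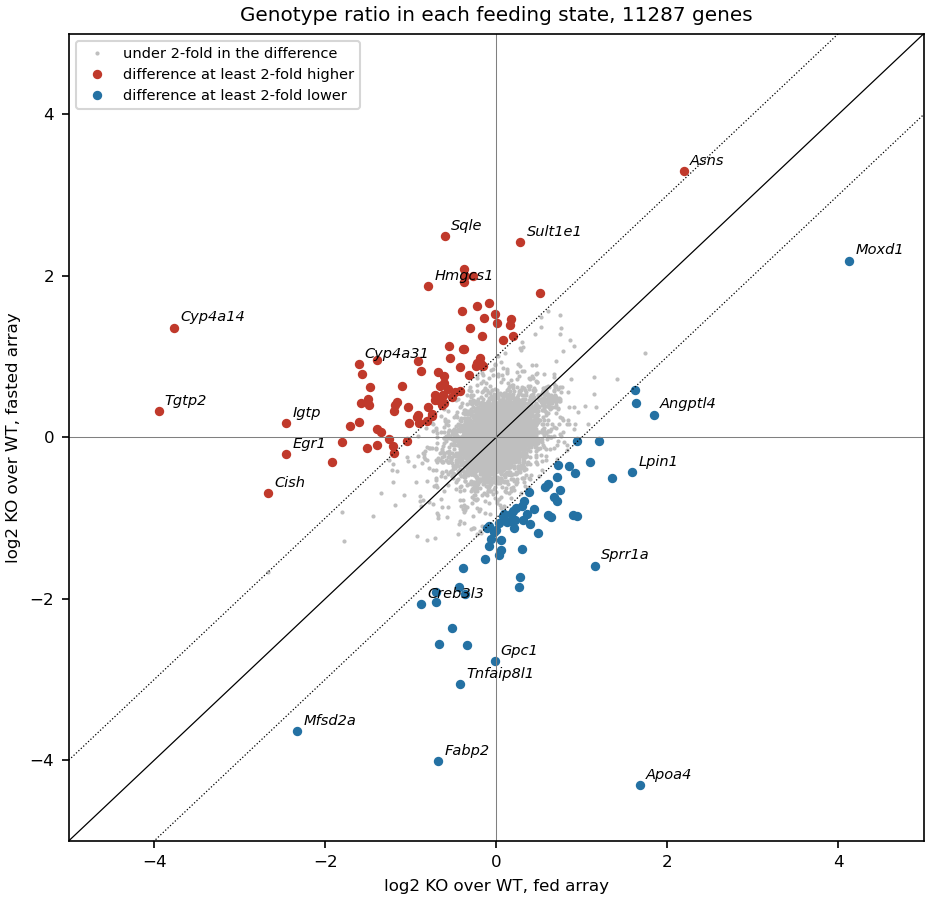
Each point is 1 of the 11287 measured genes, with the log2 KO over WT ratio on the fed array across and on the fasted array up. The solid line marks equal ratios and the dotted lines a 2-fold difference of ratios. Red points (87 genes) and blue points (68 genes) lie past the dotted lines, with Apoa4 at the lower right and Cyp4a14 and Tgtp2 at the left.

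Creb3l3 itself had log2 signals of 14.00 in fed WT, 13.12 in fed KO, 15.03 in fasted WT and 12.95 in fasted KO. The WT signal was higher in the fasted pool, while the KO signals were close to each other. The ratio was thus -0.88 fed and -2.07 fasted, a difference of -1.19 (scanner error 0.36). The lower KO signal held under each scaling tried except 1: with all spots as the basis for centring, the fed ratio was 0.31 and the fasted ratio -1.11. The sources used here do not place the probe inside or outside the deleted sequence, so the signal left in KO says nothing about the allele.

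The 68 lower genes took several shapes. KO was at least 2-fold lower when fasted only for 33 of them, headed by Fabp2, Gpc1, Tnfaip8l1, Elovl2, 1810055G02Rik and G0s2. It was at least 2-fold higher when fed only for 7, namely Lpin1, Zbtb16, Angptl4, Cyp7b1, Ntrk2, Txnip and Rgs16. Another 24 were under 2-fold on each array and passed the rule through ratios of opposite sign, among them Aqp4, Ugt1a10, Dbp and Usp2. Apoa4 and Sprr1a were past 2-fold in opposite directions on the 2 arrays, and Moxd1 and Mfsd2a in the same direction on both. In the fasting difference of each genotype, 25 of the 68 were at least 2-fold higher in fasted than in fed WT, and 28 were at least 2-fold lower in fasted than in fed KO.

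Apoa4, an apolipoprotein of chylomicrons and VLDL, lay furthest from 0 of all measured genes. Its log2 signals were 11.09 in fed WT, 12.77 in fed KO, 12.78 in fasted WT and 8.47 in fasted KO. The KO pool was the higher of the fed pair by 3.21-fold and the lower of the fasted pair by 19.8-fold. The difference of ratios was -5.99 (scanner error 0.54). WT was 1.69 higher when fasted, whereas KO was -4.30, that is, far lower.

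Fabp2, a fatty acid binding protein best known from the gut, had signals of 12.99 in fed WT, 12.31 in fed KO, 14.25 in fasted WT and 10.24 in fasted KO. Fasted WT was the highest pool and fasted KO the lowest, and the difference was -3.32 (scanner error 0.48). Because Apoa4 and Fabp2 are also enterocyte genes, the whole enterocyte list was examined. Only 4 of its 15 markers were measured in all channels, and the defining markers Vil1, Lct, Sis, Alpi, Cdx1 and Cdx2 were not. The other measured members, Anpep and Treh, had differences of -0.09 and 0.25. The summed log2 level of the 4, Apoa4 and Fabp2 included, was 14.03 in fed WT, 14.19 in fed KO, 15.09 in fasted WT and 13.28 in fasted KO.

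Among genes named as CREBH targets in earlier work, 10 of 22 measured lay at least 2-fold lower, and none passed the rule on the higher side, against 0.602% and 0.771% of all measured genes. The list had a median of -0.89 beside -0.01 for all genes, and 17 of 22 members lay below 0. This list was chosen with results of these data in view, so its direction is a description only. The median KO over WT ratio of its members was -0.34 fed and -1.05 fasted, or 0.73 and -0.08 when centred on all spots. The 10 lower members were Apoa4 and Fabp2, described above, and Elovl2, G0s2, Cidec, Fgf21, Fads2, Elovl5, Pck1 and Mfsd2a. Apoa5, an apolipoprotein that raises triglyceride clearance, lay under the rule at -0.86 and Apoa1, the main protein of HDL, at -0.41. The secreted proteins Hamp and Crp were both at 0.00, and the highest members were Cyp7a1 (0.37), Gpihbp1 (0.34) and Apcs (0.32).

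Fgf21, a fasting hormone made by hepatocytes, had signals of 6.96 in fed WT, 6.43 in fed KO, 9.02 in fasted WT and 6.65 in fasted KO. Fasted WT stood alone above the other pools, which lay within a narrow band near the dim end. The difference was -1.84 (scanner error 0.47). Cidec, a protein of lipid droplet fusion, had the same shape, with 6.88 in fed WT, 6.21 in fed KO, 9.37 in fasted WT and 6.80 in fasted KO, a difference of -1.89. G0s2, an inhibitor of the lipase ATGL, had 10.34 in fed WT, 10.62 in fed KO, 12.62 in fasted WT and 10.89 in fasted KO. Again only the fasted WT pool stood above the others, and the difference was -2.01.

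Genes that make long polyunsaturated fatty acids showed another shape, in which fasted KO was the low pool. Elovl2, an elongase of very long polyunsaturated chains, had signals of 12.96, 12.62, 13.35 and 10.78 in fed WT, fed KO, fasted WT and fasted KO. The first 3 pools lay close together and fasted KO was far lower, so that the difference was -2.23 (scanner error 0.37). Elovl5, the elongase of the step before, had 13.21, 12.78, 13.35 and 11.49 in the same order and a difference of -1.42. Fads2, the delta-6 desaturase, had 8.26, 7.89, 9.01 and 7.07 and a difference of -1.58. Fads1, the delta-5 desaturase, stayed under the rule at -0.50, and Elovl6, which lengthens saturated chains, was at -0.24. Over the list of polyunsaturated fatty acid synthesis and transport, 4 of 14 members passed the rule, all on the lower side, against 0.602% of all genes, and the median was -0.21. Acsl3, an acyl-CoA synthetase, was at 0.93 but passed the rule on the higher side at 1.88 with the signals processed by the scanner software. The fourth was Mfsd2a, a transporter of lysophospholipids carrying such chains, at -1.31, but its difference was 0.04 with the signals processed by the scanner software and its call ended there. Scd1, the desaturase of saturated chains, was also lower, with 15.84, 15.14, 14.18 and 12.25 in fed WT, fed KO, fasted WT and fasted KO and a difference of -1.22.

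Further lower genes have varied roles, and in Gpc1 and Tnfaip8l1 fasted KO was the low pool. Gpc1, a cell surface heparan sulfate proteoglycan, had signals of 9.08 in fed WT, 9.06 in fed KO, 9.51 in fasted WT and 6.74 in fasted KO. The fed ratio was -0.02, and the difference was -2.75 (scanner error 0.44). Tnfaip8l1, a member of the TNFAIP8 family, had 11.72, 11.31, 12.51 and 9.46 in the same order and a difference of -2.64. The fasted ratios were -2.77 for Gpc1 and -3.06 for Tnfaip8l1, while both fed ratios were under 2-fold. Slco1a4, an organic anion transporter, lay at -1.69 and Lamb3, a laminin chain, at -1.49. Ldha, the muscle-type lactate dehydrogenase subunit, had bright signals of 15.62, 15.59, 16.70 and 15.53, with fasted WT alone higher, and lay at -1.14.

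**Figure D2:**
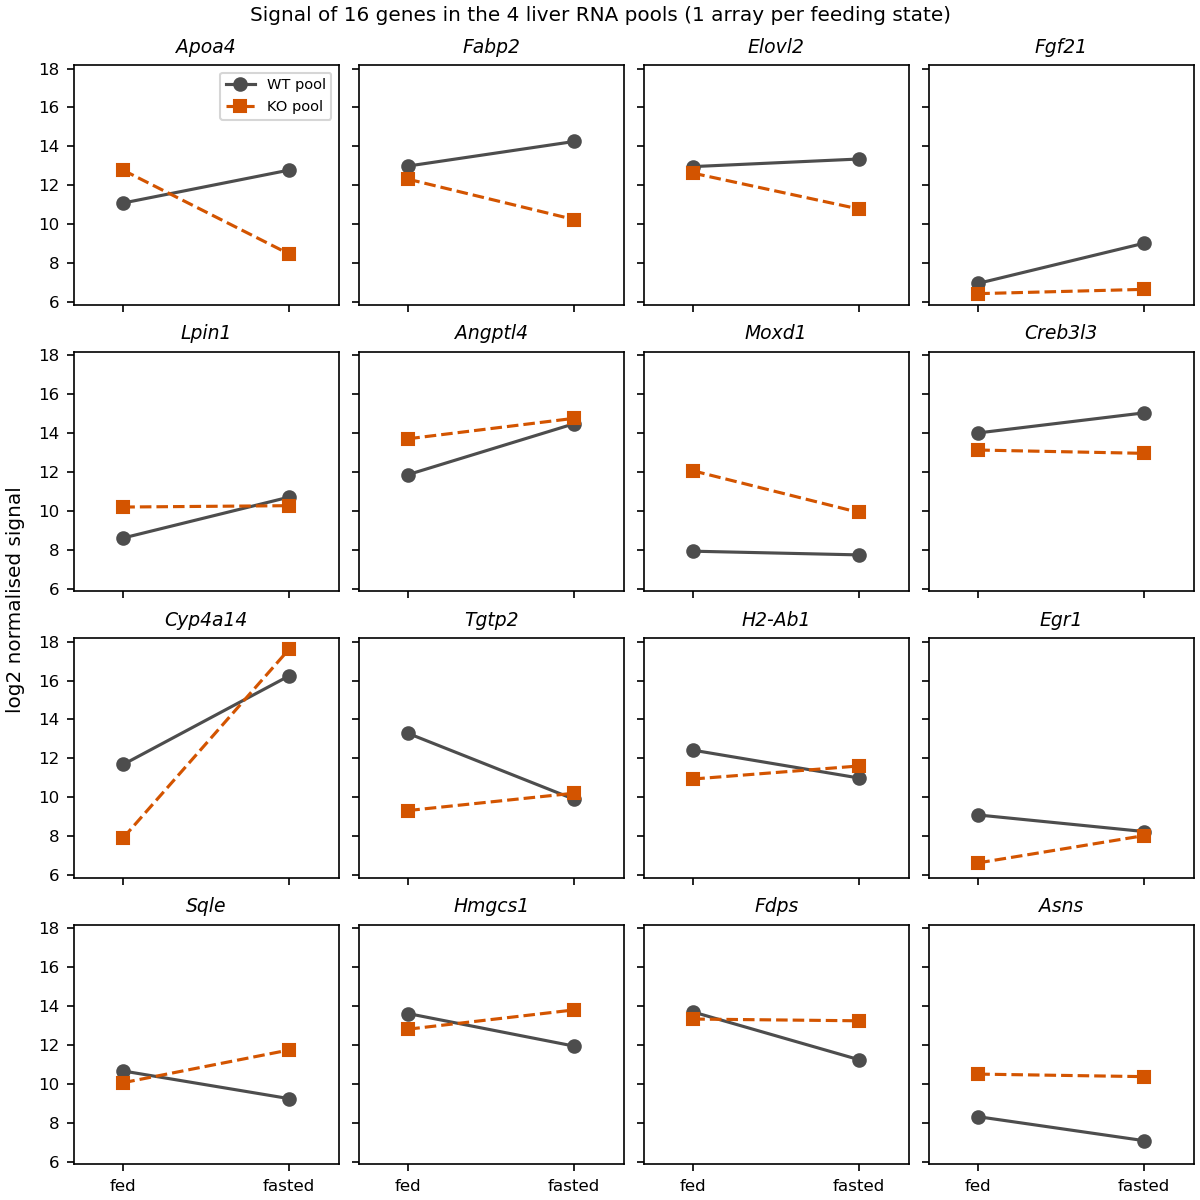
Log2 normalised signal (vertical axis) of 16 genes in the fed and fasted pools, with WT as grey circles and KO as orange squares; each point is 1 pool measured once, so there are no error bars. In the Apoa4 panel the lines cross from 12.77 to 8.47 for KO and from 11.09 to 12.78 for WT, and in the Sqle, Hmgcs1 and Fdps panels WT is the lowest pool after fasting.

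Genes at least 2-fold higher in KO when fed only included several known to be induced by fasting. Lpin1, a phosphatidate phosphatase and coactivator of PPAR alpha, had signals of 8.60 in fed WT, 10.19 in fed KO, 10.70 in fasted WT and 10.26 in fasted KO. Fed WT was the single low pool, and the other 3 lay close together. The difference was -2.02 (scanner error 0.34). Angptl4, a lipoprotein lipase inhibitor, had 11.86, 13.70, 14.47 and 14.75 in the same order and a difference of -1.56. Zbtb16, a glucocorticoid-induced zinc finger factor, had 8.57, 9.92, 10.33 and 9.82 and a difference of -1.85. In each of these 3 genes fed WT was the lowest pool. Txnip, a thioredoxin-binding protein, had 8.79, 10.43, 10.52 and 10.94 and a difference of -1.22. Moxd1, a monooxygenase-like protein, was higher in KO on both arrays, by log2 ratios of 4.13 fed and 2.19 fasted. Its difference of -1.95 thus came from a smaller KO excess in fasting.

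Clock output genes, which follow the circadian clock, leaned the same way. Of 14 measured, 4 passed the rule, all on the lower side, against 0.602% of all genes. Below 0 lay 11 of the 14, as did 5780 of the 11287 genes in all, and the median was -0.45. Dbp, a PAR bZIP factor driven by the clock, had signals of 11.33 in fed WT, 12.07 in fed KO, 12.33 in fasted WT and 11.68 in fasted KO. KO was the higher pool when fed and the lower one when fasted, and the difference was -1.39 (scanner error 0.30). Usp2, a deubiquitinase, had 7.98, 8.90, 9.29 and 8.84 with the same crossing and a difference of -1.36. Noct, a circadian phosphatase, lay at -1.27 and Rgs16, a G protein regulator, at -1.02. The other PAR bZIP factors Tef (-0.82) and Hlf (-0.36) were on the same side under the rule. Of the core clock, 1 of 10 measured genes was past 2-fold on the lower side, against 0.602% of all genes, and that was Per1 at -1.19. Its neighbours in that list lay between -0.57 (Nr1d1) and 0.60 (Arntl), and the list median was -0.21. The sources used here do not state the time of day at which livers were taken, and its part in these values was not tested.

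Gluconeogenesis genes leaned lower as well, with 14 of 15 below 0 and a median of -0.35, but only Pck1 was past 2-fold, 1 of 15 against 0.602% of all genes. Pck1, the cytosolic carboxykinase that commits carbon to glucose, had signals of 14.66 in fed WT, 14.87 in fed KO, 16.67 in fasted WT and 15.54 in fasted KO. Fasting signals exceeded fed ones in both genotypes, with fasted WT on top, and the difference was -1.34 (scanner error 0.31). G6pc, glucose-6-phosphatase, reached -0.92, or -1.22 when centred on all spots, and Fbp1, fructose bisphosphatase, -0.46.

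The 87 higher genes were of another make. KO was at least 2-fold higher when fasted only for 23 of them, headed by Sqle, Hmgcs1, Idi1, Fdps, Cxcl1 and Msmo1. It was at least 2-fold lower when fed only for 29, headed by Tgtp2, Igtp, Cyp4a31, Cyp4a10, Vnn1 and Egr1. Another 33 were under 2-fold on each array with ratios of opposite sign, Cyp4a14 was past 2-fold in opposite directions and Asns was past it in the same direction on both. Across the 87, 36 genes were at least 2-fold lower in fasted than in fed WT and 34 at least 2-fold higher in fasted than in fed KO, and for 51 the difference made by fasting was of opposite sign in WT and KO. The signs of fasting differences rest on the normalization between arrays, unlike the difference of ratios.

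Cholesterol synthesis enzymes lay high as a group. All 21 enzymes on the list were measured, and 14 passed the rule on the higher side, none on the lower, against 0.771% of all genes. All 21 lay above 0, with a median of 1.42 and a range from 0.04 for Ggps1 to 3.09 for Sqle. In the fed state each of the 21 was below WT in KO, with a median ratio of -0.24 and no enzyme past 2-fold, but the fed sign turned with the scaling: 12 of 21 lay below 0 when centred on measured genes, and none when centred on all spots, where the list median was 0.56 beside 0.78 for all genes. In the fasted state 20 of 21 were above WT, with a median of 0.98 and 10 past 2-fold, against 0.381% of all genes. From fed to fasted, WT was lower for 19 of the 21 (median -0.95) and KO was higher for 16 (median 0.34). Centred on all spots, 12 were past 2-fold, without Fdft1 (0.98) and Lss (0.91). Without normalization between arrays, where the median of all genes was 0.46, those medians were -0.33 and 0.86, so that WT lay below and KO above all genes either way.

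The steps from acetyl units to farnesyl and geranylgeranyl diphosphate held 6 of 9 enzymes past 2-fold, with a median of 1.52. Hmgcs1, which makes HMG-CoA, had signals of 13.61 in fed WT, 12.81 in fed KO, 11.94 in fasted WT and 13.80 in fasted KO. The WT pool was lower when fasted and the KO pool higher, giving a difference of 2.66 (scanner error 0.35). Idi1, the isopentenyl diphosphate isomerase, had 11.66, 11.29, 10.25 and 12.32 in that order and a difference of 2.45. Fdps, farnesyl diphosphate synthase, had 13.69, 13.33, 11.24 and 13.24, so that KO was nearly level between the states while WT was lower by 2.44, and its difference was 2.36. Mvd (1.98), Pmvk (1.52) and Mvk (1.42), which carry mevalonate to isopentenyl diphosphate, were also past 2-fold. Acat2, the thiolase that opens the pathway, was at 0.30, and Ggps1, which branches off to geranylgeranyl diphosphate, at 0.04.

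All 3 enzymes of the squalene and lanosterol steps were past 2-fold. Sqle, squalene epoxidase, had signals of 10.66 in fed WT, 10.06 in fed KO, 9.24 in fasted WT and 11.74 in fasted KO. Fasted KO was the highest pool and fasted WT the lowest, and the difference was 3.09 (scanner error 0.39), 8.54-fold in the ratio. Fdft1, squalene synthase, lay at 1.17 and Lss, lanosterol synthase, at 1.1. After lanosterol, 5 of 9 enzymes were past 2-fold, with a median of 1.12. Msmo1, a C4 sterol methyl oxidase, had 11.77, 11.50, 10.82 and 12.83 in fed WT, fed KO, fasted WT and fasted KO and a difference of 2.27. Nsdhl (1.86), Cyp51 (1.62), Dhcr7 (1.48) and Hsd17b7 (1.12) followed. Sc5d (0.83), Tm7sf2 (0.24) and Ebp (0.22), of the same stretch, stayed under the rule.

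**Figure D3:**
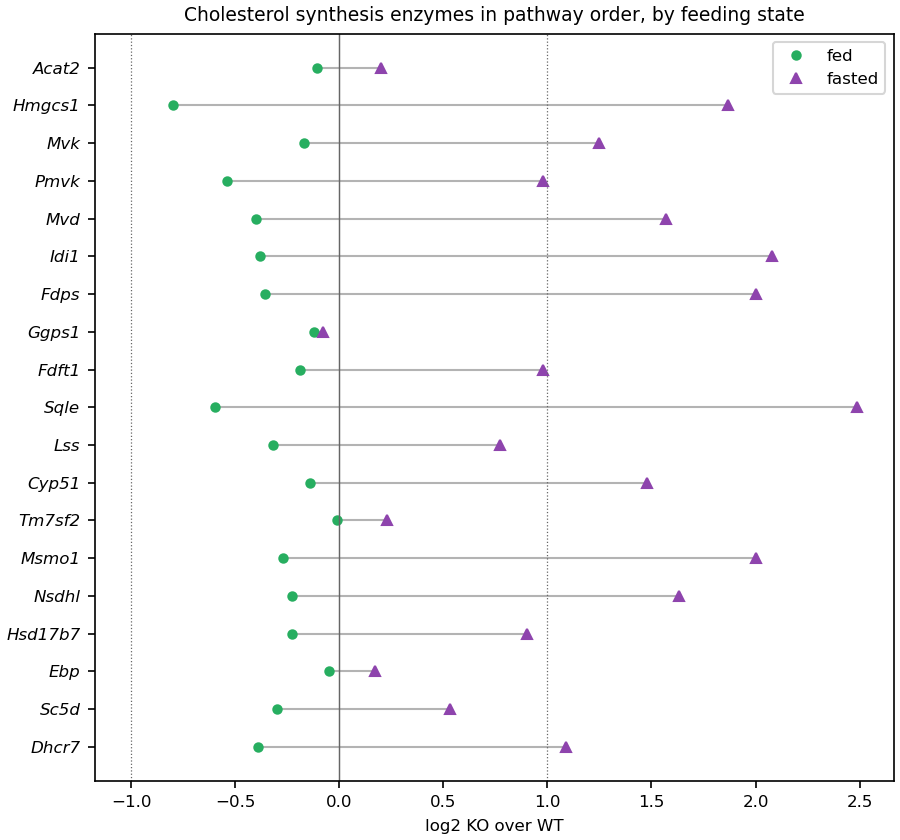
Log2 KO over WT ratio of 19 cholesterol synthesis enzymes in pathway order from top to bottom, fed (green circles) and fasted (purple triangles); the grey bar between them is the difference of ratios and dotted lines mark 2-fold. Every fed ratio lies below 0 in the scaling shown, which turns when centred on all spots, and the fasted ratio lies above 0 for 18 of them, with Sqle furthest right at 2.49.

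Genes around the pathway lay closer to 0. Of 18 measured genes of SREBP-2 control and cholesterol uptake, 3 were at least 2-fold higher and 1 lower, against 0.771% and 0.602% of all genes, with a median of 0.28, and 5 were higher with the signals of the scanner software. Among the higher genes were Rdh11, a retinol dehydrogenase and known SREBP target, at 1.37 and Insig1, which retains SREBPs in the endoplasmic reticulum, at 1.05. Srebf2, which encodes SREBP-2, reached 0.73. The lower gene was Lpin1. In the fatty acid arm 3 of 22 genes were at least 2-fold higher and 1 lower, against 0.771% and 0.602% of all genes. The median was 0.44 and turned to -0.02 when ratios were centred on all spots. Mid1ip1 (1.27) and G6pdx (1.08) were among those past the rule, Fasn reached 0.75 and Acaca -0.11, and Scd1 was the lower one. Centred on all spots, none of the 3 higher genes was past 2-fold, with Mid1ip1 at 0.86 and G6pdx at 0.71, and Insig1 was at 0.65. No test compared the pathways.

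The promoters of the sterol enzymes were read from RefSeq's table for build GRCm38.p6, from 250 bases before to 50 bases after each start. The table held promoters of 63 of the 87 higher and 51 of the 68 lower genes; Sqle and Fdps had no entry. The letters CCAAT, on either strand, the box bound by NF-Y, which is known to work beside SREBPs, were found in 15 of 16 enzyme genes with an entry, or 78.9% of their 19 promoters, against 37.4% of all 32851 promoters. The sterol element TCACNCCAC, on either strand, was found in 1 of the 16, Hmgcs1, and in 1.24% of all promoters. These 5 promoters are printed because these enzymes carry the largest fasted ratios among those with an entry. Each run is the 200 bases before the start, on the gene's own strand, with the match in capitals: the sterol element for Hmgcs1 (chr13:119690151-119690350, plus strand) and CCAAT or its reverse complement for Idi1 (chr13:8885406-8885605, plus), Msmo1 (chr8:64733579-64733778, minus), Mvd (chr8:122443423-122443622, minus) and Nsdhl (chrX:72918321-72918520, plus).
Hmgcs1: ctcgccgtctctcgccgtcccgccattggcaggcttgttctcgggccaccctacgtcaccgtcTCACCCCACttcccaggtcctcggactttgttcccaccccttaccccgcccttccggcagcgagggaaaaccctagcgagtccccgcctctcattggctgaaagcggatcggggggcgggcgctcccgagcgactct
Idi1: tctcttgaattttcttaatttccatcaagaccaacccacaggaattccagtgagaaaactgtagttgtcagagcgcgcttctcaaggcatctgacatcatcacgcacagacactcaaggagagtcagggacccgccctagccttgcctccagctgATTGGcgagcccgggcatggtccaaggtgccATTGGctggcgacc
Msmo1: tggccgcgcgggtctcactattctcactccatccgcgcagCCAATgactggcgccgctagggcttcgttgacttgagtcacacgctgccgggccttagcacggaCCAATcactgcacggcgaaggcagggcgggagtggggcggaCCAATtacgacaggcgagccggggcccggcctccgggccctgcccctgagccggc
Mvd: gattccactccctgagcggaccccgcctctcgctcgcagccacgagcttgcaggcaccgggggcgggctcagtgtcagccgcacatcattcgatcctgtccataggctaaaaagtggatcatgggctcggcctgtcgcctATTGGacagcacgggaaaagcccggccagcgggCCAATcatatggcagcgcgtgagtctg
Nsdhl: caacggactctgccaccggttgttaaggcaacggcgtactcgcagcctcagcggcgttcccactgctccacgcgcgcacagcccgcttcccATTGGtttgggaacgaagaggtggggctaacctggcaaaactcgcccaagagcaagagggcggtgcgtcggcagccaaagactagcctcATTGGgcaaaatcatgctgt
The Hmgcs1 element began 137 bases before the start, and the CCAAT matches of Idi1 began 45 and 14 bases before it. Msmo1 held 3 matches, and Mvd and Nsdhl 2 each. A match is a run of letters and was not measured as bound.

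Interferon-inducible GTPases, which guard cells against intracellular pathogens, made the second large group of higher genes, with another shape. Of 22 on the list 17 were measured, 9 passed the rule, all on the higher side, against 0.771% of all genes, and all 17 lay above 0 with a median of 1.04. Since a gene must be above background in all pools to count, the 17 are not the whole list: Tgtp1 and Gbp8 were not above background in every channel, and Gbp11, Mx1 and Mx2 had no named probe. In the fed state all 17 were lower in KO, with a median ratio of -1.18 and 10 past 2-fold, against 0.399% of all genes. Centred on all spots, 14 of 17 lay below 0 and 2 were past 2-fold. The list median was then -0.42, beside 0.78 for all genes. After fasting the median ratio was -0.02 and none was past 2-fold in either direction, against 0.55 and 1 when centred on all spots. WT was lower in the fasted than in the fed pool for all 17 (median -0.93), and KO was higher for 12 (median 0.23). Without normalization between arrays these medians were -0.36 and 0.49 beside 0.46 for all genes, so WT lay below all genes and KO close to them. With the signals processed by the scanner software the median of the difference was 1.67 and 12 were past 2-fold. Centred on all spots 8 were, without Gbp2, which lay just short of the rule.

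Tgtp2, named as a T cell specific GTPase, had signals of 13.28 in fed WT, 9.32 in fed KO, 9.90 in fasted WT and 10.21 in fasted KO. Fed WT stood 15.5-fold above fed KO, while the fasted pools differed by 1.24-fold, and the difference was 4.27 (scanner error 0.49). The close copy Tgtp1 may share its signal. Igtp, also called Irgm3, had 12.34, 9.88, 10.47 and 10.66 in the same order, and fed WT was again the single high pool. Its difference was 2.65 and its probe is among those printed 10 times, with an SD of 0.07 between its measured spots. Iigp1 (1.75), Gvin1 (1.49), Gbp3 (1.41), Gbp4 (1.41), Irgm2 (1.29), Gbp6 (1.23) and Gbp2 (1.04) followed. Irgm1 lay under the rule at 0.88, and Ifi47, which was lower in KO on both arrays at -1.18 and -0.84, at 0.33.

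The letters GAAANNGAA, on either strand, the core of the element bound by interferon factors, were found in 8 of 9 GTPase genes with a promoter entry, or 80.0% of their 10 promoters, against 8.56% of all promoters. Of the promoters of all higher genes 15.2% held them, and of those of all lower genes 7.81%. The GTPase list is defined by induction by interferon, so its share says nothing about the array values. These 4 promoters are printed from among the genes past 2-fold in the difference whose window holds a match, and Gbp2 is another such gene. Gbp5, Gbp7 and Irgm1, which were under the rule, hold a match too. They are the 200 bases before the start on the gene's own strand in GRCm38.p6, with GAAANNGAA or its reverse complement in capitals: Tgtp2 (chr11:49064213-49064412, minus strand), Igtp (chr11:58199356-58199555, plus), Irgm2 (chr11:58214777-58214976, plus) and Gbp3 (chr3:142559844-142560043, plus).
Tgtp2: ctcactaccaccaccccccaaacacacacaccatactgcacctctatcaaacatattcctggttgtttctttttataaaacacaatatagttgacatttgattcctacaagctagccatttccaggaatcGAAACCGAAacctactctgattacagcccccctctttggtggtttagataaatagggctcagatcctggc
Igtp: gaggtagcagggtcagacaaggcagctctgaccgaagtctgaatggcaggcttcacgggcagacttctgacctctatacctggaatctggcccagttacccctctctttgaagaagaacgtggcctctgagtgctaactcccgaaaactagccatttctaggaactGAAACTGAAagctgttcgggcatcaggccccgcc
Irgm2: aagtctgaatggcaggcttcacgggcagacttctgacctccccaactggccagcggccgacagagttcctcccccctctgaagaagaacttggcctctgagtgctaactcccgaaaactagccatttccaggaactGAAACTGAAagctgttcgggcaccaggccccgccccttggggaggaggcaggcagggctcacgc
Gbp3: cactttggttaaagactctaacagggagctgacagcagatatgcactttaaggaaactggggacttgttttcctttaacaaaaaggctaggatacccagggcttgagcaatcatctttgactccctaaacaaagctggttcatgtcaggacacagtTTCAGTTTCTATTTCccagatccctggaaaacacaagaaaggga
In Igtp, Irgm2 and Tgtp2 the match began 34, 64 and 70 bases before the start. The Igtp and Irgm2 runs are nearly the same around the match, so they are not separate instances. Gbp3 held 2 overlapping matches, which is why its capitals run longer.

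Other interferon-stimulated genes were closer to 0. Of 30 measured, 2 passed the rule, both on the higher side, against 0.771% of all genes, with a median of 0.27. Both were chemokines induced by interferon gamma, Cxcl9 at 1.85 and Cxcl10 at 1.18. With the signals of the scanner software 5 passed, adding Gm12250 (2.24), Socs1 (1.62) and Oasl1 (1.04), and 4 passed with an offset of 10 or without background correction. Cxcl9 had signals of 9.48 in fed WT, 7.78 in fed KO, 7.52 in fasted WT and 7.66 in fasted KO, so fed WT was the single high pool. Antigen presentation by MHC class I had a median of 0.35 over 16 genes, with 1 at least 2-fold higher, against 0.771% of all genes. That gene was the immunoproteasome subunit Psmb9, which was at 0.70 when centred on all spots. MHC class II genes lay further out. Of 12 on that list 8 were measured, 5 passed the rule, all on the higher side, against 0.771% of all genes, with a median of 1.74.

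H2-Ab1, a class II beta chain, had signals of 12.42 in fed WT, 10.94 in fed KO, 10.99 in fasted WT and 11.61 in fasted KO. Fed WT was the highest pool, and KO stood above WT in the fasted pair. The difference was 2.10 (scanner error 0.33). Cd74, the invariant chain, had 11.83, 10.25, 10.52 and 10.94 in that order and a difference of 2.0. H2-Eb1 (1.98), H2-Aa (1.88) and H2-DMb1 (1.60) were past 2-fold, and H2-DMa (0.96), Ifi30 (0.73) and Ctss (0.59) were under it. All 8 were lower in KO when fed, with a median of -1.32 and 5 past 2-fold, against 0.399% of all genes. All 8 were higher in KO when fasted, with a median of 0.43. Centred on all spots, 6 of 8 lay below 0 when fed, with a median of -0.42 and none past 2-fold, and the fasted median was 1.09. The class II activator Ciita was not above background in every channel.

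Class II genes are expressed by macrophages and dendritic cells, so the marker lists of other liver cells are given beside them. Of 18 Kupffer cell and macrophage markers 16 were measured, 15 lay above 0 and the median was 0.36. Their summed log2 level was 14.52 in fed WT, 14.12 in fed KO, 14.48 in fasted WT and 14.55 in fasted KO. Fed KO was thus the low pool in this scaling, where 15 of 16 fed ratios lay below 0, with a median of -0.33. Centred on all spots, 14 of 16 fed ratios lay above 0, with a median of 0.5 beside 0.78 for all genes. Marco, a scavenger receptor, was at 1.19 and under the rule at 0.93 when centred on all spots, Cd5l at 0.72 and Clec4f, a defining Kupffer cell marker, at 0.31. Lymphocyte markers, 8 of 20 measured, had a median of 0.15 and summed levels between 12.09 and 12.58. Sinusoidal endothelial markers had a median of 0.20 and stellate cell markers one of 0.00. The part of these cells in the interferon and class II values was not tested. All 10 hepatocyte markers were measured at bright levels, with summed levels between 19.41 and 19.45 and a median of -0.10.

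**Figure D4:**
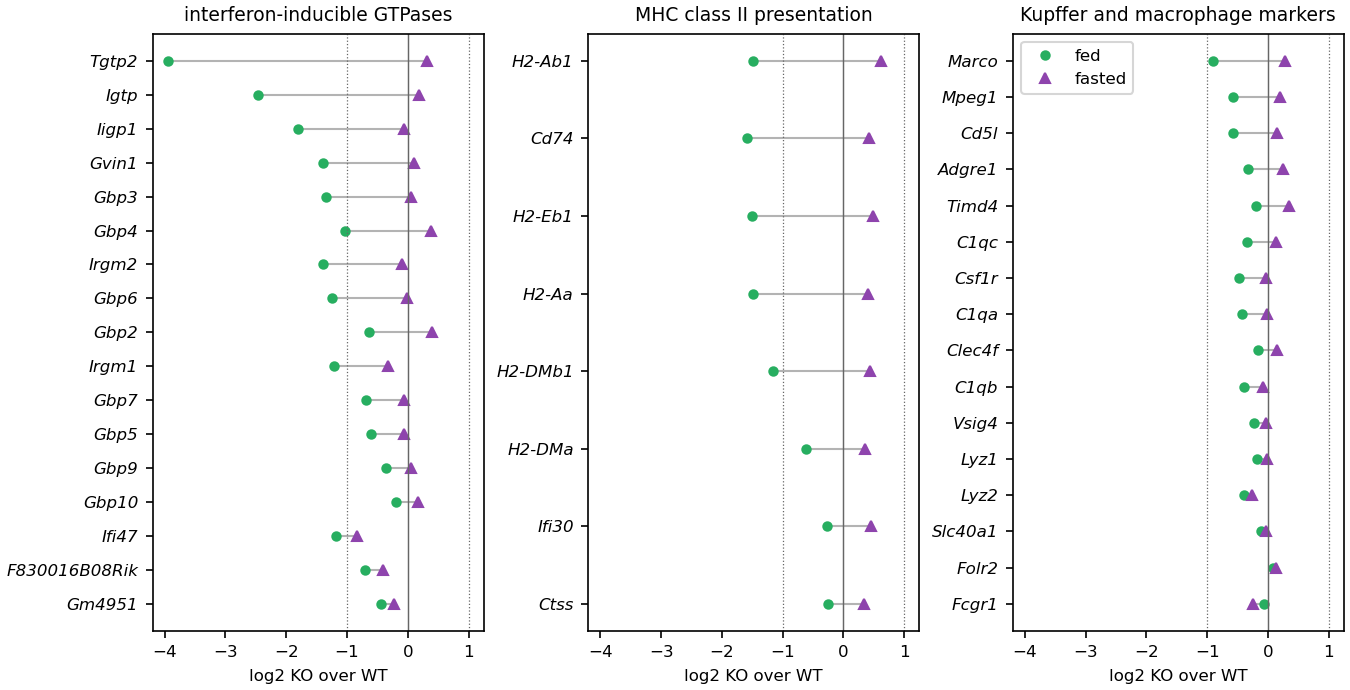
Log2 KO over WT ratio, fed (green circles) and fasted (purple triangles), for 17 interferon-inducible GTPases, 8 MHC class II genes and 16 Kupffer cell and macrophage markers, each panel ordered by the difference of ratios; dotted lines mark 2-fold. The fed ratios of the first list reach -3.95 (Tgtp2), the class II genes cross 0 between the states (6 of 8 do when centred on all spots), and of the markers only Marco, at 1.19, has a difference past 2-fold.

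PPAR alpha targets and fatty acid oxidation genes were split. Of 46 measured, 7 were at least 2-fold higher and 2 lower, against 0.771% and 0.602% of all genes, with a median of 0.24. Cyp4a14, a fatty acid omega-hydroxylase and classic PPAR alpha target, had signals of 11.69 in fed WT, 7.92 in fed KO, 16.24 in fasted WT and 17.61 in fasted KO. KO was 13.6-fold below WT when fed and 2.57-fold above it when fasted, so the difference was 5.13 (scanner error 0.50), the highest of all measured genes. Cyp4a31 (2.52), Cyp4a10 (2.35) and Cyp4a32 (1.24) are near-identical copies whose probes may share signal. The 3 measured probes of Cyp4a31 ran from 0.97 to 2.52, with a mean of 1.52. Vnn1, a pantetheinase, had 7.75, 6.18, 10.98 and 11.76 in that order and a difference of 2.35. It is dim in the fed pools, and its difference was 4.44 with the signals of the scanner software. Ehhadh (1.03), a peroxisomal oxidation enzyme, and Retsat (1.01), a retinol saturase, were the other higher ones, just inside the rule. Ehhadh was at 0.99 with the signals of the scanner software, and Retsat at 0.98 when centred on all spots. The lower ones, both described above, were Fgf21, also on the list of CREBH targets, and Creb3l3, the gene for which KO is null. Creb3l3 is thus counted here although it is the gene altered in KO, and the cause of its difference was not tested. For 44 of the 46 genes WT was higher in the fasted pool, and for 43 KO was, with medians of 1.27 and 1.43.

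Immediate-early genes, the first to be transcribed after a stimulus, had 3 of 17 measured past the rule, all on the higher side, against 0.771% of all genes, with 16 above 0 and a median of 0.45. With the signals of the scanner software 7 passed and the median was 0.89; Atf3 (1.56), Btg2 (1.42), Myc (1.23) and Gadd45b (1.06) were added. Egr1 had signals of 9.09 in fed WT, 6.63 in fed KO, 8.24 in fasted WT and 8.03 in fasted KO, with fed KO as the single low pool and a difference of 2.25 (scanner error 0.45). Jun had 11.02, 9.92, 9.85 and 10.48 and a difference of 1.73, and Nr4a1 was at 1.1, or 0.86 when centred on all spots. Fos, Fosb and Junb were not above background in every channel. Cish, a STAT5 feedback inhibitor, resembled Egr1 with 9.98, 7.31, 9.28 and 8.59 and a difference of 1.98. Socs2, another STAT5 target, went the other way at -1.12, and growth hormone and STAT5 targets as a list had a median of -0.10, with 1 of 18 higher and 2 lower, against 0.771% and 0.602% of all genes.

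Single genes higher in fasted KO alone came from several families. Sult1e1, the estrogen sulfotransferase, had signals of 6.74 in fed WT, 7.02 in fed KO, 6.53 in fasted WT and 8.95 in fasted KO. The first 3 pools were near the dim end and fasted KO stood above them, with a difference of 2.14 (scanner error 0.50). Cxcl1, a neutrophil chemokine, had 7.87, 7.49, 7.46 and 9.38 in the same order and a difference of 2.30. Fabp4, a fatty acid binding protein of fat cells and macrophages, had 9.38, 9.07, 9.39 and 10.74 and a difference of 1.65. Of 10 adipocyte markers 3 were measured, and the defining markers Adipoq, Lep and Plin1 were not above background in every channel. The other measured markers were Pparg, at -0.74, and Car3, at -0.45. The summed level of the 3 was 15.60 in fed WT, 16.14 in fed KO, 13.32 in fasted WT and 13.53 in fasted KO, and was set almost wholly by Car3, which had 15.56, 16.12, 13.17 and 13.28. The part of fat cells in the Fabp4 values was not tested. Aldh1a1, a retinal dehydrogenase, was bright in all pools, with 15.26, 15.27, 15.18 and 16.61 and a difference of 1.41.

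**Figure D5:**
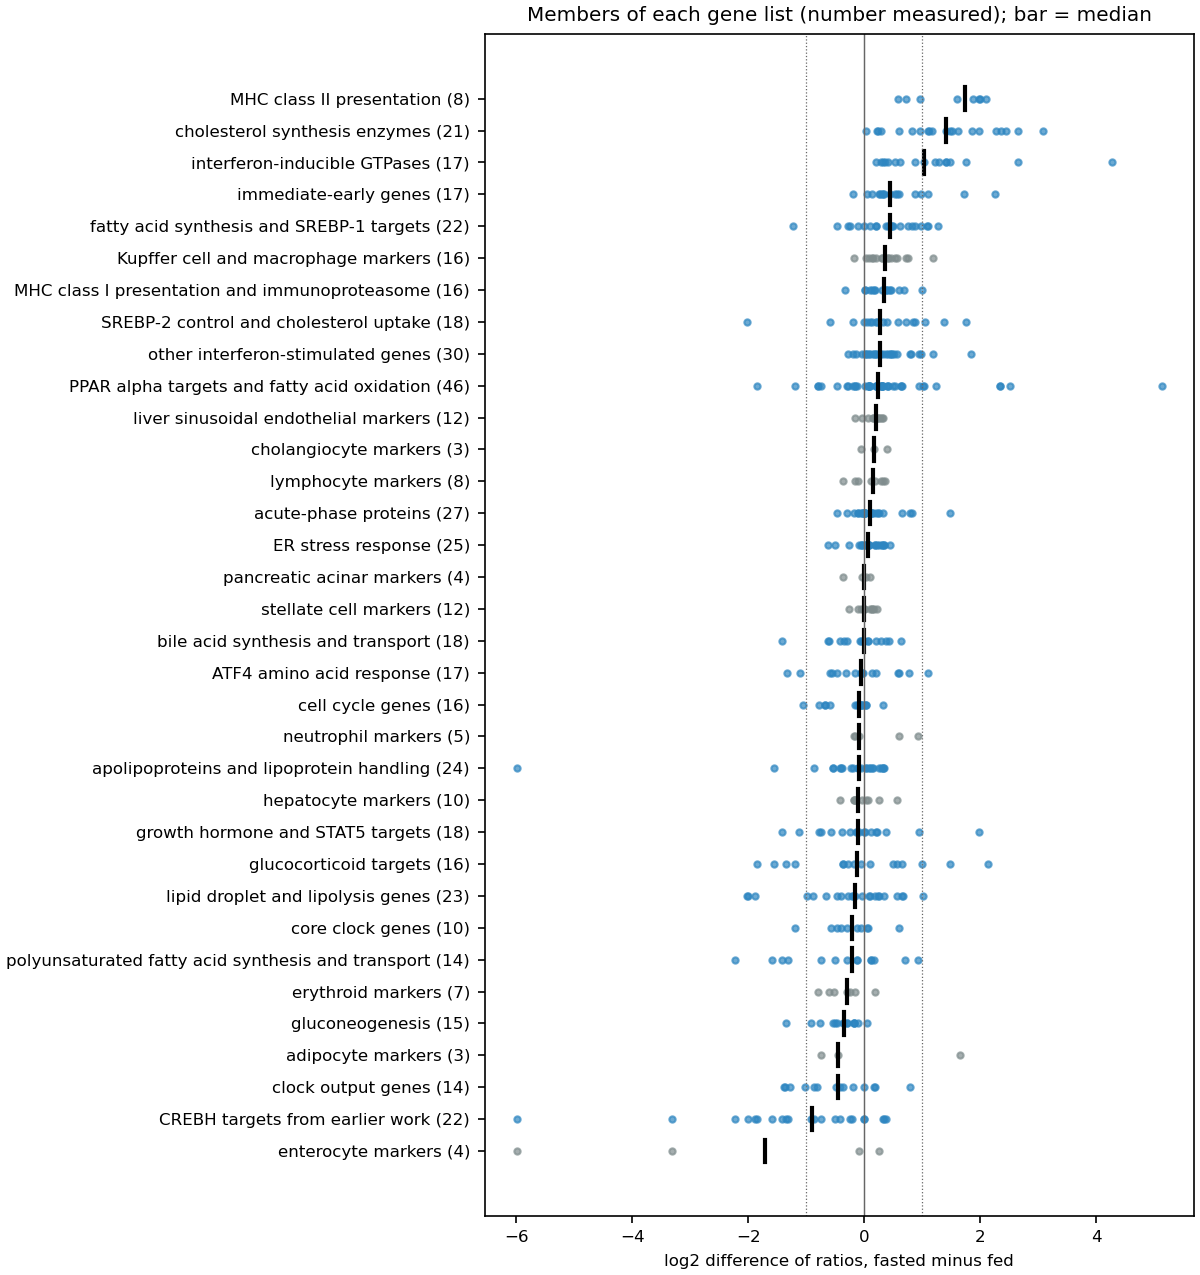
Difference of ratios (fasted minus fed, log2) of each measured member of 34 gene lists, pathway lists in blue and cell type marker lists in grey, ordered by the list median (black bar); dotted lines mark 2-fold. MHC class II (1.74), cholesterol synthesis (1.42) and GTPases (1.04) stand at the top, and CREBH targets (-0.89) and the 4 measured enterocyte markers (-1.71) at the bottom. Apoa4 and Fabp2 are on both bottom lists, and the other measured enterocyte markers, Anpep and Treh, were under 2-fold.

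Several lists had a median near 0, some with members past 2-fold. ER stress genes had a median ratio of 0.24 fed and 0.31 fasted, or 1.3 and 1.12 when centred on all spots. None of the 25 was past 2-fold in the difference, against 1.37% of all genes. The list median of 0.07 turned to -0.18 when ratios were centred on all spots. Hspa5, the chaperone BiP, was higher in KO by log2 ratios of 0.67 fed and 0.75 fasted, a difference of 0.08. The ATF4 amino acid response had 1 of 17 measured higher and 2 lower, against 0.771% and 0.602% of all genes, with a median of -0.06. Its higher member was Asns, asparagine synthetase, with signals of 8.31 in fed WT, 10.50 in fed KO, 7.08 in fasted WT and 10.37 in fasted KO. KO was above WT in both states, by log2 ratios of 2.19 and 3.30. The difference of 1.11 (scanner error 0.55) came with a lower fasted WT pool. It was 0.84 when centred on all spots, under the rule. The lower ones were Atf5 at -1.33 and Chac1 at -1.10. Acute-phase proteins had a median of 0.11, turning to -0.14 when centred on all spots. Past 2-fold was 1 of 27, Lcn2, a siderophore-binding protein, at 1.49, against 0.771% of all genes on the higher side. Bile acid genes had a median of -0.01, with Cyp7b1, the oxysterol hydroxylase, at -1.41 and Cyp7a1, which starts the classic bile acid route, at 0.37.

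In all, 79 of the 155 genes past 2-fold were on at least 1 list and 76 on none. Among the latter on the higher side were Spon2, a matrix protein, at 1.87 and Sucnr1, the succinate receptor, at 1.70. On the lower side were Slc25a47, a mitochondrial carrier of liver, at -1.50 and Cyp3a11, a drug-metabolizing cytochrome, at -1.18.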

How the data were processed

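Median spot and local background intensity per channel were deposited as read by Agilent Feature Extraction 10.10.1.1 per the file headers, without normalization. Processed intensity, as deposited, was background-subtracted and corrected for dye by that software. Its log10 ratio of Cy5 over Cy3, with an error, was deposited for each spot. The value table of the authors holds a log2 ratio per spot, at most 0.005 from the log10 ratio after conversion, with medians of 0.00 on both arrays, so its scale, direction and centring are those of the scanner's ratio.

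Spot medians were the starting point. Background was corrected with normexp (offset 50) on all spots, and ratios were normalized within each array by loess giving the 3671 control spots no weight (limma 3.58.1, R 4.3.3). The offset shrinks the ratios of dim genes. Aquantile made pool signals comparable between arrays and leaves the difference of ratios as it is. Outlier spots (216 fed, 197 fasted) were left out, no gene spot was saturated, and the number of arrays limits the precision. Spots of a probe were averaged. Probe accessions were matched to the GRCm38.p6 RefSeq gene table, which named 26762 of 55681 probes. Since the array was designed on another build, the table was used for names and promoters only. A gene was taken by its brightest probe and counted as measured when at least 50% of its spots were well above background in each channel. The error of a difference is the root of the summed squares of the scanner errors of both log ratios, and covers 1 spot, not mice. The background correction and the normalization within arrays were tested on simulated arrays built from the fed signals.

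No test was run, with 1 pool per group, and a gene is past the rule of size at 2-fold. Described genes are Creb3l3, the 15 highest and 15 lowest, up to 6 members per list furthest from 0 (all members for 5 lists) and up to 6 per pattern. Others, among them Cyp3a11, Ldha, Slco1a4, Lamb3, Aldh1a1, Hspa5, Fasn and Acaca, were chosen after their values were seen. The members and the 34 lists were chosen with earlier results of these data known. Results were recomputed under 9 other settings, and 1 was added after seeing the data, the fasting differences without normalization between arrays. Some members of the lists are counted but not reported here by name.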

Additional observations from a re-analysis of the deposited data

Results flagged for a closer look

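Apoa4, Cyp4a14 and Sprr1a were past 2-fold in opposite directions on the fed and the fasted array, with differences of -5.99, 5.13 and -2.74. Sprr1a, a small proline-rich protein of stressed epithelia, had log2 signals of 7.11 in fed WT, 8.26 in fed KO, 7.72 in fasted WT and 6.13 in fasted KO. Its signals lay near the dim end, and with the signals processed by the scanner software its difference was -4.73. These differences between the feeding states were not tested, since each pool was measured once.

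Probes without a gene name held signal that enters no comparison above. Of 6544 such probes measured in all channels, 53 were at least 2-fold apart in the difference of ratios (0.81%), 23 higher and 30 lower.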

How the results depend on the processing

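Of the 155 genes, 148 stayed past 2-fold in the same direction with the scanner-processed signals, 128 when centred on the median of all spots, which moved the median of all genes to -0.17, and 151 when probes were averaged. Creb3l3 and the 15 highest and 15 lowest genes, 31 in all, kept their sign under 8 alternatives, as did the 23 of them with a value in the brighter part of the genes. All but Creb3l3 were picked for lying furthest from 0 in these same values, so the kept signs do not test them. Genes past 2-fold numbered 340 with the scanner-processed signals (203 higher, 137 lower) and 342 with the authors' value table (205 and 137). Centring on all spots gave 66 higher and 125 lower genes, against 87 and 68, and the brighter part of the genes alone gave 44 lower ones. With the scanner signals, and equally with the authors' table, list medians were 1.57 for cholesterol synthesis, 1.67 for GTPases, 2.05 for MHC class II, -0.79 for CREBH targets and -0.62 for clock output genes. Centred on all spots they were 1.15 for cholesterol synthesis, 1.55 for MHC class II, -1.09 for CREBH targets and -0.69 for clock output genes. The GTPase median was 1.17 when centred on measured genes, 1.36 with an offset of 10, 1.22 without background correction, 0.81 with probes averaged and 1.39 in the brighter part of genes. The MHC class II median was 1.96 with an offset of 10, 1.86 without background correction and 1.99 in the brighter part, the CREBH median -0.78 with that offset and -0.74 in the brighter part, and the clock output median -0.65 there. No median of these 5 lists turned sign, and the cause of these shifts was not tested. Medians of 4 other lists turned sign when centred on all spots: fatty acid synthesis, ER stress, acute-phase and pancreatic acinar genes. No paired analysis was possible because each group is 1 pool and the labels carry no replicate numbers. The data hold no spread between mice.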
